A study of Rattus norvegicus with 15 samples.

Results

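Chemokines and interleukins are the secreted proteins with which cells of a tissue call in and instruct cells of the immune system, and their receptors decide which cells can respond. The array probes named for these proteins and their receptors were examined in the olfactory epithelium of 8 Brown Norway rats aged 6 weeks. Members were taken by gene name: every probe other than a control spot whose name, stripped of the suffix for a predicted or mapped gene, began with Cxcl, Ccl, Cx3c, Cxcr, Ccr, Xcl or Il in the standard numbered form. This gave 124 probes of 106 genes, out of 41012 probes on the array. The rats were 4 males (numbers 1, 2, 5 and 6) and 4 females (numbers 3, 4, 7 and 8), and the labels give no treatment, so all the groups were of the same strain, tissue and age. RNA of nostrils A and B was hybridized separately, except that male 1 gave nostril A only, for 7 male and 8 female arrays. Per the file headers the arrays lay on 4 slides, of which slides 1 and 2 held rats 1 to 4 and slides 3 and 4 held rats 5 to 8. The labels do not name the supplier of each rat, and suppliers were not compared here.

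Chemokines form gradients that draw leukocytes through receptors coupled to G proteins. CXC ligands such as Cxcl1 act mainly on neutrophils and lymphocytes, and CC ligands such as Ccl2 act mainly on monocytes, T cells and eosinophils. Interleukins act through receptors built from several chains, and soluble antagonists or decoy receptors hold some of them in check. The nasal lining meets inhaled dust and microbes, and its epithelial cells, resident macrophages and mast cells are all known sources of these proteins.

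Levels are given as log2 of the signal over the median signal of the same array, so that 0 is the array median. Signals under 0.1 of the median were set to that floor, which is -3.32 on this scale, and no order was read among floored values. Brightness also depends on the probe, so levels were compared between samples for one probe and never between probes. A probe detected on at least 11 of the 15 arrays was called expressed, one detected on 1 to 10 arrays weakly expressed, and the others not expressed. Array medians ranged from 57.4 to 83.4 intensity units and the lowest signal called well above background from 10.01 to 14.49 units, so that transcripts below that were not detectable. The olfactory neuron marker Omp lay between 7.40 and 7.65 in every rat, and the leukocyte genes Laptm5 and Coro1a were detected on all 15 arrays, so the dissected tissue held blood-derived cells as well as neurons. In such mixed tissue, fewer cells of a type and less RNA per cell cannot be told apart.

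The results turn most on the neutrophil-attracting chemokines Cxcl1 and Cxcl2. The probe for Cxcl1 lies at chr14:18690468-18690527 and that for Cxcl2 at chr14:18677236-18677295 (build rn3), and the array annotation does not give exons or untranslated regions. Their sequences are shown because genes of one family could in principle share a signal. In the best overlap without gaps the probes matched at 21 of 54 positions, and their longest shared run was 6 bases.
Cxcl1 probe: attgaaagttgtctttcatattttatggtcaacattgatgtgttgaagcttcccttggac
Cxcl2 probe: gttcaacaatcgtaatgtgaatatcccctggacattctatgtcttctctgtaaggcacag

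Both genes are textbook targets of the transcription factor NF-kB, and so is the chemokine Ccl20. The 250 bases before the start of each gene (RefSeq, build GRCr8, gene strand) are shown with every match to the 10-base kappaB consensus, searched on both strands, in capitals. They lie at chr14:17479322-17479571 on the minus strand for Cxcl1, at chr14:17467256-17467505 on the minus strand for Cxcl2, and at chr9:91836909-91837158 on the plus strand for Ccl20.
Cxcl1 upstream: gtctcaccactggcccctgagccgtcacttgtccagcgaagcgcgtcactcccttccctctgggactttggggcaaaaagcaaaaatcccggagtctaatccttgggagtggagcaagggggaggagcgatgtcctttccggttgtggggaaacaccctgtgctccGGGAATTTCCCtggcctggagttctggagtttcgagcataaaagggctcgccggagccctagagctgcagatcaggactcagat
Cxcl2 upstream: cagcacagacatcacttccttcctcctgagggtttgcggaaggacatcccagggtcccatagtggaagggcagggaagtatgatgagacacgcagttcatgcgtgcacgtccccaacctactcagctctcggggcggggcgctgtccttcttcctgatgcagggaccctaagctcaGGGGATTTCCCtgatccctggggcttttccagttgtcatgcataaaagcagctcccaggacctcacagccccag
Ccl20 upstream: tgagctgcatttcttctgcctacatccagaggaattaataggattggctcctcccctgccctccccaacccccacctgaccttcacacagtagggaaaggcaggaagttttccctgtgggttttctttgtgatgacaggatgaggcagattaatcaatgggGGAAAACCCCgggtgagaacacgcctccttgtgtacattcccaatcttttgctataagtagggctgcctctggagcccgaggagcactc
In Cxcl1 the 2 overlapping matches filled an 11-base run from 84 to 74 bases before the start, and in Cxcl2 the 3 overlapping matches filled an 11-base run from 74 to 64 bases before it. Ccl20 had 1 match, 89 to 80 bases before the start. A match was found in 2117 of 33469 promoters of the same length (6.33%), and in 15 of the 81 promoters found for the member genes (18.5%). These matches describe letters only, and no measurement of binding was made.

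The first question was which of these genes were detectable at all. The expressed class held 60 of the 124 probes (48.4%), the weakly expressed class 23 (18.5%) and the undetected class 41 (33.1%), against 65.1%, 11.1% and 23.8% of all probes. At least 1 expressed probe was found for 50 of the 106 genes, and 35 genes had no probe detected on any array. Interleukins were the least detected role, with 16 of 27 probes not expressed, whereas 20 of 38 probes for interleukin receptor chains were expressed. All 11 probes for CXC ligands were detected on at least 1 array.

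**Figure D1:**
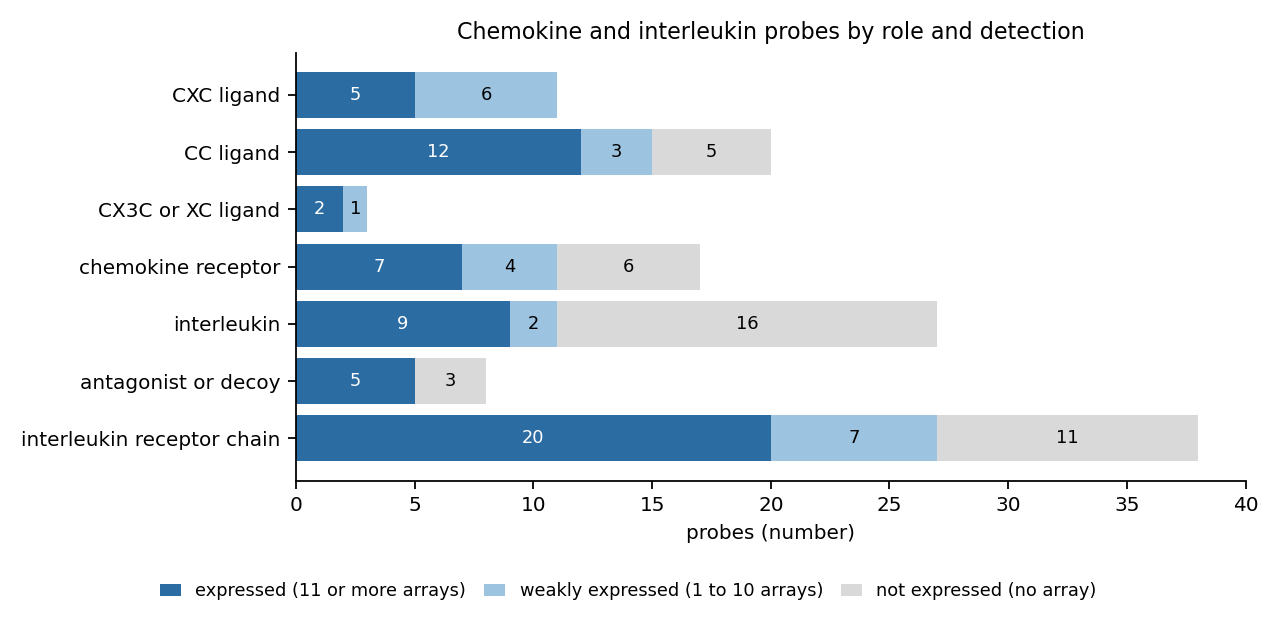
Number of member probes (horizontal axis) by role and by detection class, with the count printed in each bar segment. Interleukins have 16 of 27 probes in the not expressed class, and CXC ligands have none.

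Among the CXC ligands, Cxcl1, Cxcl12, Cxcl14 and Cxcl4 were detected on all 15 arrays. Cxcl12, which guides stem cells and axons and keeps leukocytes in place, had probes that ranged over the rats from 4.13 to 4.85 and from 3.54 to 4.35. Cxcl14, a chemokine made constitutively by epithelia, lay between 5.29 and 5.67. Cxcl2 was detected on 10 arrays, and its level ranged from 1.69 in female 3 down to values not above background in females 7 and 8. The interferon-induced ligands were at the edge of detection, Cxcl10 on 8 arrays and Cxcl9 and Cxcl11 on 1 array each.

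Of the CC ligands, 11 of 18 genes had an expressed probe. These included the mucosal chemokine Ccl28 (2.99 to 3.44 over the rats), the epithelial chemokine Ccl27 (4.51 to 5.25) and Ccl21b, which lines lymph vessels (2.55 to 3.46). The monocyte chemokines Ccl2, Ccl7 and Ccl12 and the macrophage products Ccl3 and Ccl6 were also on all 15 arrays. The eosinophil chemokines Ccl11 and Ccl24 and the gut chemokine Ccl25 were on none. Ccl17 and Ccl22, products of dendritic cells that attract T cells bearing Ccr4, were weakly expressed, on 8 and 9 arrays.

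Receptors were fewer. Of 15 chemokine receptor genes 6 had an expressed probe and 5 had no probe detected. Cxcr4, the receptor of Cxcl12, was steady over the rats (3.98 to 4.43 and 3.54 to 4.03 on its 2 probes), and Cxcr3, the receptor of the interferon-induced ligands, lay between 2.41 and 3.09. Cx3cr1, carried by macrophages and microglia, lay between -1.30 and -0.74, and its membrane-bound ligand Cx3cl1 between 6.03 and 6.58 on the brighter of its 2 probes. The monocyte receptor Ccr2 and the neutrophil receptors Il8ra and Il8rb (now Cxcr1 and Cxcr2) were on 0 of 15 arrays each. Ccr1, another receptor of CC ligands, was on all 15.

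Among interleukins the epithelial alarm cytokine Il18 and the macrophage cytokine Il1b were on all 15 arrays, as were Il15, which sustains natural killer cells, and Il16, Il17b, Il12a and Il4. Il1a, Il6, Il10 and the T-cell growth factor Il2 were on none. The antagonist Il1rn, the decoy receptor Il1r2 and the binding protein Il18bp, which neutralizes Il18, were each detected on all 15 arrays. Il18bp lay within 2.18 to 2.53 in the 8 rats and Il1r2 within 1.14 to 1.99. The signaling receptor chains that were expressed included Il6st (the shared chain gp130), Il6ra, Il4ra, Il13ra1, Il11ra1 and Il17re.

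Several of these chains differed little between rats. Il4ra and Il13ra1, which together form the receptor for Il4 and Il13 on epithelial cells, lay within 3.35 to 3.73 and within at most 0.49 log2 units on each of the 4 Il13ra1 probes. Il1rap, the partner chain of Il1r1, lay within 1.34 to 1.74. Il11ra1, the receptor of a cytokine of the Il6 family that was itself on 0 arrays, lay within 5.55 to 5.91. Il6ra, the chain that binds Il6 and passes the signal to Il6st, was lower in males 1 and 2 (2.28 and 2.46) than in the other 6 rats (2.83 to 3.07), and its F-test among rats passed at 5% but not at 1% (limma adjusted p = 0.0334). With slide as a block, males 1 and 2 are not set against the males on other slides. That fit (limma adjusted p = 0.639) therefore does not test whether they were lower.

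Setting each ligand beside a textbook receptor gave 41 pairs, 23 of chemokines and 18 of interleukins. Ligand and receptor were both expressed in 4 chemokine pairs, among them Cxcl12 with Cxcr4 and Cx3cl1 with Cx3cr1, and in 3 interleukin pairs (Il1b with Il1r1, Il4 with Il4ra, Il15 with Il2rb). An expressed ligand met a receptor that was on no array in 4 chemokine pairs, which were Cxcl1 with Il8rb and the 3 monocyte chemokines with Ccr2. The same held for 2 interleukin pairs (Il12a with Il12rb2 and Il18 with Il18r1). The reverse was the most frequent state among interleukins: in 9 of 18 pairs the receptor chain was expressed and the interleukin was on no array, as for Il6 with Il6ra. Ccl19, Ccl21b and Ccl20 were on all 15 arrays while Ccr7 and Ccr6 were on 1 array each. Not detected means below the limit of these arrays and not absent.

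**Figure D2:**
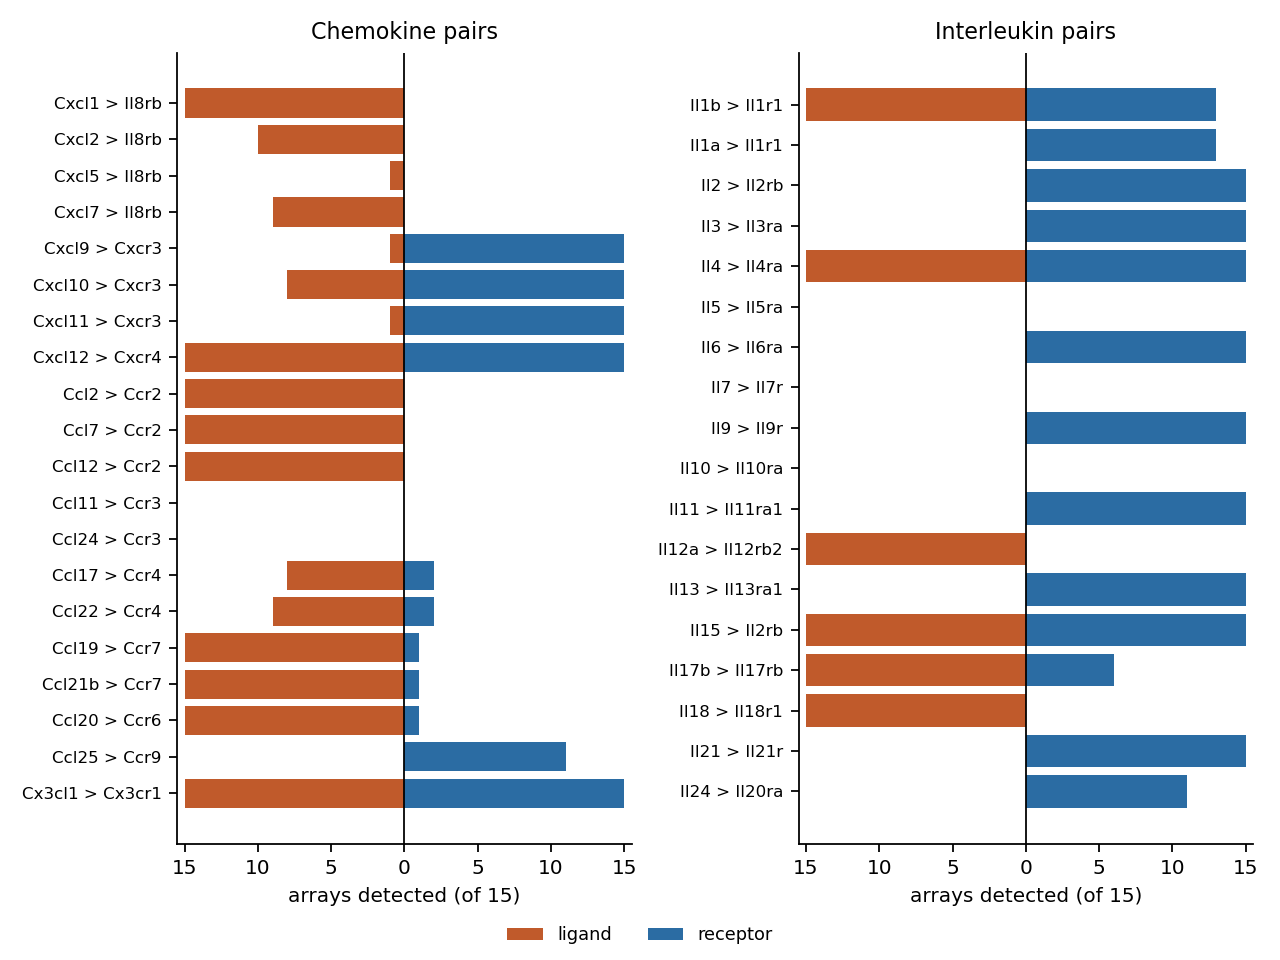
Number of arrays, of 15, on which the ligand (bars to the left) and the receptor (bars to the right) of a pair were detected, taking the probe detected most often for each gene. All interleukin pairs are drawn, and the chemokine pairs that are not reported here are left out. A bar on the receptor side only stands in 9 of the 18 interleukin pairs. Cxcl1, Ccl2, Ccl7 and Ccl12 show a bar on the ligand side only, as do Cxcl2, Cxcl5, Cxcl7, Il12a and Il18.

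Some of these statements depend on which probe is read. Of the 16 genes with several probes, 3 had 1 probe on all 15 arrays and another on none, among them Il1rn and the decoy receptor Il22ra2. The Il1rn probes, placed by the annotation at chr3:2613130-2613189 and chr3:2609497-2610531 (build rn3), are shown because the statement on this antagonist rests on the first alone.
Il1rn probe on 15 arrays: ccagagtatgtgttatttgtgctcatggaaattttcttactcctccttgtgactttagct
Il1rn probe on 0 arrays: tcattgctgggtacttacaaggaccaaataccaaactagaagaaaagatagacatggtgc
Their longest shared run was 5 bases, so they read different stretches. The other 13 genes with several probes did not combine an expressed and an undetected probe, although Il4 was on 15 arrays with 1 probe and 7 with the other, and Il1r1 on 13 and 3.

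Differences between groups were tested on the 66 member probes (55 genes) that reached detection on 7 or more arrays, as many as came from males. The other 58 probes were not tested. All tests were fitted with limma over every probe of the array that passed the same filter (27625 probes, or the 27574 with a value on every array for the tests between rats of one sex and between nostrils) and adjusted by the Benjamini-Hochberg method, at a false discovery rate of 1%, with the nostrils of a rat averaged where animals were compared.

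The first comparison asked whether males and females differed. No member passed at an adjusted p of 0.01 or 0.05, where 0.0434% and 0.0724% of all probes did. At an unadjusted p of 0.05, 17 of 66 tested member probes (25.8%) stood out, beside 17.1% of all probes. Of these, 12 (18.2% of the tested member probes) were lower in females, beside 4.9% of all probes. Over the 66 tested member probes the median female minus male difference was -0.09, beside 0.01 for all tested probes. Rat means of the sexes did not overlap for 7 members (10.6%), beside 11.3% of all probes.

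The member with the smallest adjusted p was Ccl12, a monocyte chemokine. Its level was -0.02, 1.15, 0.24 and -0.02 in males 1, 2, 5 and 6, and -1.28, -1.41, -0.39 and -0.57 in females 3, 4, 7 and 8. Every female lay below every male. With normexp background correction the female minus male difference was -0.54 (limma adjusted p = 0.278). In the main fit it was -1.25 (SE 0.31, n = 4 rats per sex, limma adjusted p = 0.115). It was -1.91 among rats 1 to 4, -0.59 among rats 5 to 8, and -1.88 on slide 1, the only slide that held both sexes, where females were represented by 1 array (nostril A of female 3) and males by 2 rats. With slide as a block, a fit in which the sexes are separated by that slide alone, 4 of the 66 (6.06%) passed at 5%, beside 5.63% of all probes, and none at 1%. They were Il17re, Il6ra and Cxcr3, higher in females, and Ccl12 (-2.04, adjusted p = 0.0375). Ccl28, a chemokine of mucosal plasma cells, was 0.27 higher in females (SE 0.07, limma adjusted p = 0.124), and Il2rb, a receptor chain for Il2 and Il15, differed by -0.41 (SE 0.11, limma adjusted p = 0.126). None of these passed without the block. The median female minus male difference was -0.22 over 8 tested macrophage probes, -0.66 over 4 neutrophil probes, -0.25 over 5 probes for genes of all leukocytes and -1.94 over 3 red cell probes. It was -0.10 over 3 T-cell probes, -1.26 on 1 B-cell probe and -0.18 over 2 endothelial probes. Other lists were higher in females: 0.08 over 7 mast cell probes (5 of them higher), 0.07 over 7 olfactory neuron probes, 0.37 over 2 sustentacular (supporting) cell probes and 0.14 over 4 ciliated cell probes. The summed level of the leukocyte genes was 229.4 to 419.2 multiples of the array median on male arrays and 203.5 to 244.6 on female arrays. Their part in these differences was not tested.

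The next comparison asked whether rats of one sex differed by more than their nostrils did. It spans the slides, so that Cxcl1, whose split into rats 1 to 4 and rats 5 to 8 was known beforehand, and Cxcl2, which met the detection filter through rats 1 to 4, are described and not counted. Of the other 64 tested member probes 0 passed the F-test at 1%, beside 2.79% of all probes, and 11 (17.2%) passed at 5%, beside 16.1%. The share at 5% is close to that of the whole array and does not set the members apart. With slide as a block 0 members passed at 5% (smallest limma adjusted p = 0.157), beside 0.116% of all probes. That fit leaves out differences between the slide sets, so it does not test calls that rest on them.

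The levels of Cxcl1 were 0.75 in male 1, 1.34 in male 2, 2.08 in female 3 and 1.05 in female 4, and -0.34 in male 5, -0.41 in male 6, -1.12 in female 7 and -0.88 in female 8. The gap held on single arrays: the lowest array of rats 1 to 4 was nostril A of female 4 (0.13) and the highest of rats 5 to 8 was nostril A of male 5 (0.01). The means were 1.31 ± 0.57 and -0.69 ± 0.38 (SD, n = 4 rats each), a 3.98-fold difference (-1.99 on the log2 scale, and -1.13 with normexp background correction). No test is given for this split. The step was 1.42 log2 units between the males of both sets and 2.57 between the females, downward in each case (-1.42 and -2.57).

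**Figure D3:**
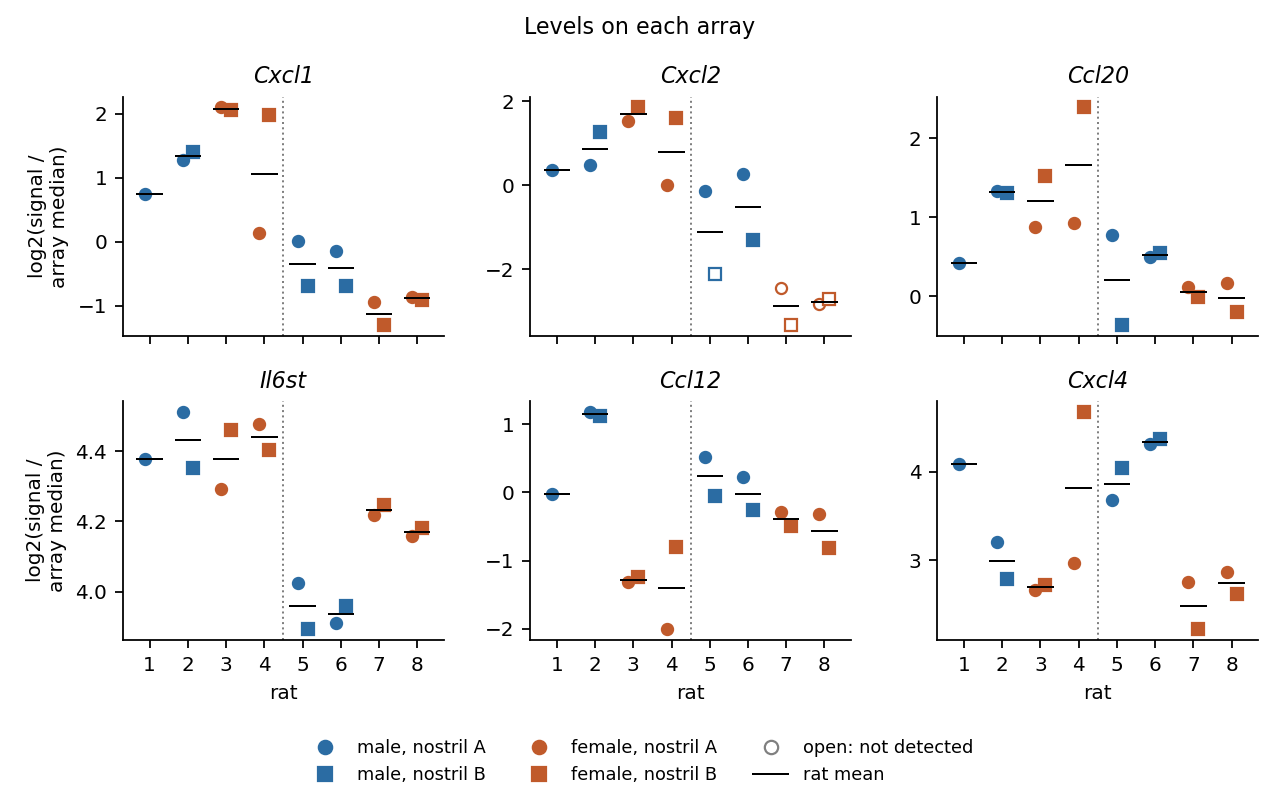
Log2 level over the array median (vertical axes, one scale per gene) of Cxcl1, Cxcl2, Ccl20, Il6st, Ccl12 and Cxcl4 on each array, by rat, with circles for nostril A, squares for nostril B, open symbols where the probe was not detected and a bar at the rat mean. The dotted line separates slides 1 and 2 from slides 3 and 4, and no Cxcl1 value crosses it.

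Slides 3 and 4 were then set against slides 1 and 2, with sex in the model. Cxcl1 and Cxcl2 were left out for the reasons given. Of the other 64 tested member probes 0 passed at 1%, beside 0.0507% of all probes, and 2 (3.12%) passed at 5%, beside 4.92%. These were Il6st and Il1r1, both lower in rats 5 to 8, where 2.63% of all probes were. Rat means did not overlap for 6 of the 64 (9.38%), beside 11.3% of all probes. These counts do not set the members apart from the array as a whole. Slide, hybridization and any difference between the animals of these sets cannot be told apart here.

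Cxcl2, which lies beside Cxcl1 on chromosome 14 and shares its receptor, was 0.36, 0.87, 1.69 and 0.80 in rats 1 to 4 and -1.11, -0.52, -2.88 and -2.77 in rats 5 to 8. It was detected on every array of rats 1 to 4 and on 3 of the 8 arrays of rats 5 to 8, and in females 7 and 8 it was above background on none. The fitted difference of -2.75 is therefore not a measured size, and with normexp background correction it was -1.03. No test is given for it, since a probe detected in this way had to differ.

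Il6st, the signal chain shared by receptors of the Il6 family, had a small step that was larger in males (-0.46) than in females (-0.21), a contrast that was not tested. Its levels were 4.38, 4.43, 4.38 and 4.44 in rats 1 to 4 and 3.96, 3.94, 4.23 and 4.17 in rats 5 to 8. The groups did not overlap, and the difference was -0.33 (SE 0.06, limma adjusted p = 0.0302), which is 1.26-fold. The call at 5% was lost after leaving out any of 6 of the 8 rats (adjusted p up to 0.0914, without female 4). It was also lost without the sex term (0.084), with no filter on dim probes (0.0631), with normexp (0.523) and with the methods' t-test (0.258). The difference itself stayed between -0.27 and -0.37. Between rats of one sex its F was 12.5 (adjusted p = 0.0108), with adjusted p from 0.00261 with scaling to the 75th percentile to 0.918 with normexp. With slide as a block, which leaves out the step between the slide sets, the limma adjusted p was 0.906.

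Il1r1, the signaling receptor for Il1b, was -1.29, -1.09, -0.99 and -1.12 in rats 1 to 4 and -1.50, -1.80, -1.64 and -1.98 in rats 5 to 8, a difference of -0.61 (SE 0.14, limma adjusted p = 0.0436). The call was lost after leaving out any 1 of the 8 rats (adjusted p 0.0558 to 0.122), without the sex term (0.074), with the methods' t-test (0.201) and with normexp, where the difference was -0.18 (adjusted p = 0.226). It was also lost with slide as a random block (0.0635), with no filter on dim probes (0.0837) and without nostril B of female 4 and nostril A of male 5 (0.077). The tested Il1r1 probe is the one on 13 arrays, of which 6 were of the 8 arrays of rats 5 to 8. The second Il1r1 probe was detected on 3 arrays, none of them in rats 5 to 8. Ccl20, which draws dendritic cells and T cells through Ccr6, was 0.43, 1.32, 1.20 and 1.66 in rats 1 to 4 and 0.21, 0.52, 0.06 and -0.02 in rats 5 to 8. Its sets overlapped between male 1 and male 6, and the difference of -0.96 (SE 0.25) did not pass (limma adjusted p = 0.0593). Ccl20 passed at 5% with normexp (-0.59, limma adjusted p = 0.0282) and without male 1 (-1.23, 0.0365), and under no other alternative run. Over the 66 tested member probes the median slide difference was 0.03, beside 0.02 for all tested probes.

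Neutrophil genes were set beside these chemokines. Of the 11 probes on that list 8 were detected on some array, and their summed linear level, in multiples of the array median, was 8.68 to 48.2 on arrays of rats 1 to 4 and 5.55 to 29.2 on arrays of rats 5 to 8. S100a8, an abundant neutrophil protein, on its probe detected on all 15 arrays, was 2.29, 2.68, 1.13 and 3.10 in rats 1 to 4 and 1.62, 1.88, 1.14 and 1.22 in rats 5 to 8. All 4 tested neutrophil probes were lower in rats 5 to 8 (median difference -0.74), and 0 of them passed at 5%. The cell type list with a call between the slide sets was that of ciliated respiratory cells, where all 4 tested probes were higher in rats 5 to 8 and 1 passed at 5% (Dnali1, 0.38, limma adjusted p = 0.0368). The other Dnali1 probe differed by 0.15 and did not pass (limma adjusted p = 0.0674). Csf3r, the receptor that marks mature neutrophils, was on 0 arrays, and the summed macrophage list covered the same range in both sets (150.2 to 221.8 and 150.0 to 233.7). The summed mast cell list was 41.9 to 76.8 on arrays of rats 1 to 4 and 68.6 to 103.9 on arrays of rats 5 to 8, and 5 of its 7 tested probes were higher in rats 5 to 8. The part of neutrophils and mast cells in the Cxcl1 and Cxcl2 levels was not tested.

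Other members varied widely between rats. Ccl7, a monocyte chemokine, was lowest in females 3 and 4 (-0.35 and -0.72) and was 1.28 and 1.05 in females 7 and 8, so that in females it followed the slides. In males 1, 2, 5 and 6 it was 0.30, 1.62, 1.66 and 1.06. Its F was 10.1, and 9.17 on its other probe (limma adjusted p = 0.0166 and 0.0202). With slide as a block, which leaves out differences between the slide sets, the F was 3.50 (limma adjusted p = 0.298). Ccl2 was highest in male 2 (2.90) and lowest in female 3 (1.08). Il9r, the receptor of a mast cell growth factor, ran from -0.67 in male 1 to 1.23 in male 6 (F = 8.57, limma adjusted p = 0.0229). With slide as a block, where these rats are not compared, the limma adjusted p was 0.179. Ccl5, made by T cells and natural killer cells, was 1.00 in male 1 and between -0.42 and 0.20 in the other 7 rats. Cxcl9, an interferon-induced chemokine, was detected in male 1 alone.

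The platelet chemokine Cxcl4 (now Pf4) separated the rats differently. Its levels were 4.09, 3.82, 3.87 and 4.34 in male 1, female 4, male 5 and male 6, and 3.00, 2.70, 2.49 and 2.75 in male 2 and females 3, 7 and 8. The red cell genes Hbb and Alas2 made the same division: Hbb was 8.51 to 9.13 in the former rats and 5.84 to 6.91 in the latter, and Alas2 8.51 to 9.69 and 5.08 to 6.37. Nostril B of female 4 had more Cxcl4 than nostril A (4.68 and 2.97), whereas Hbb was 8.77 and 8.47 there. Cxcl7 (now Ppbp), also a platelet product, was on 9 arrays and was highest in male 6 (-0.47), male 1 (-0.65) and female 4 (-0.76), but male 5 was at -2.19. The part of blood content in these levels was not tested.

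Between the nostrils of a rat no consistent side was found. No member passed at 1% or 5%, and neither did any of the 27574 probes tested (0%). At an unadjusted p of 0.05, 4 of 66 tested member probes (6.06%) stood out beside 5.89% of all probes. The smallest p was that of Cxcl14, which was higher in nostril A in all 7 rats, by 0.19 (SE 0.04, limma adjusted p = 0.781).

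Single rats nevertheless had unequal nostrils. In female 4, 16 of the 66 tested member probes (24.2%) differed by over 1 log2 unit (2-fold) between nostrils, beside 3.01% of all tested probes. In males 5 and 6 there were 7 each (10.6%), beside 1.43% and 1.96%. Male 2 and female 7 had 3 each (4.55%, beside 1.45% and 1.31%), and females 3 and 8 had 1 each (1.52%, beside 2.78% and 0.631%). The members were dimmer than the array as a whole, with a median level of 1.08 beside 2.07. Among probes detected on all 15 arrays, the counts were 11 of 56 (19.6%, beside 2.26%) in female 4, 3 (5.36%, beside 0.67%) in male 5 and 5 (8.93%, beside 0.925%) in male 6. Among probes brighter on average than the array median, they were 9 of 47 (19.1%, beside 1.99%) in female 4, 3 (6.38%, beside 0.5%) in male 5 and 1 (2.13%, beside 0.637%) in male 6, so that most of the male 6 members were dim. These are counts on single pairs of arrays and carry no test.

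**Figure D4:**
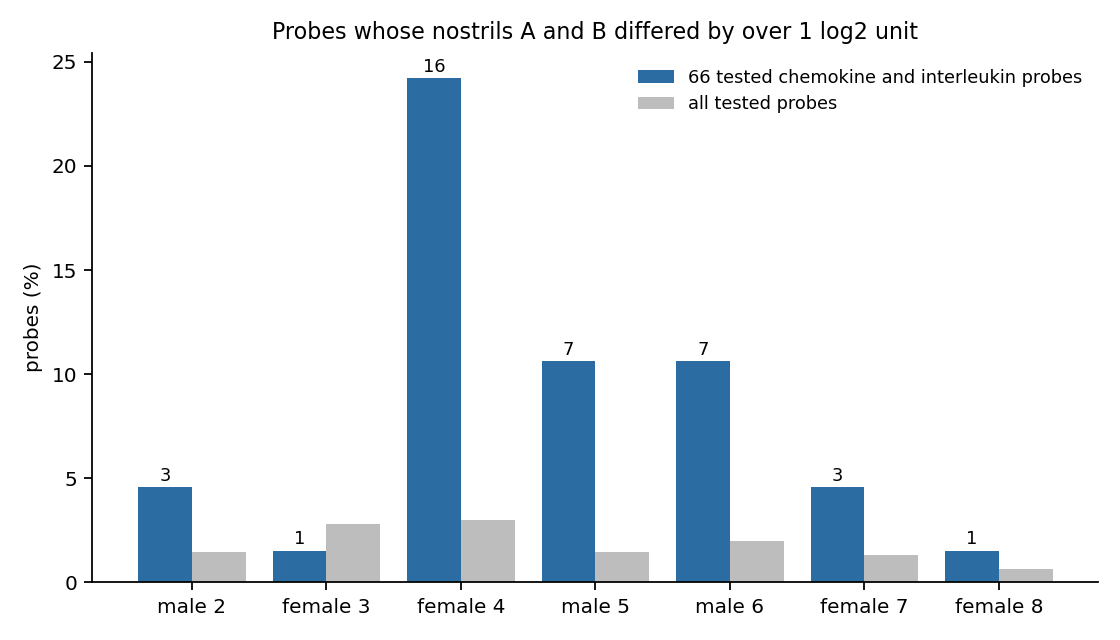
Share of probes (vertical axis, %) whose nostrils A and B differed by over 1 log2 unit in each of the 7 rats with both nostrils, for the 66 tested members (number of probes printed above) and for all tested probes. Female 4 stands out with 16 members, 24.2% beside 3.01%.

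In female 4, 14 of the 16 were higher in nostril B. They included the neutrophil chemokines Cxcl1 (1.97 in B and 0.13 in A) and Cxcl2 (1.60 and 0.00), Ccl20 (2.39 and 0.93), Ccl3 (1.72 and 0.45), and the interleukin Il1b (3.16 and 1.54 on its brighter probe) with its antagonist Il1rn (2.16 and 0.59). The T-cell chemokines Ccl17 (-0.42 and -3.11) and Ccl22 (-0.33 and -3.00) were near the floor in A, and Cxcl10 was at it (-0.57 in B and -3.32 in A). The 2 that were higher in A were the probes of Ccl7 (-0.13 in A and -1.31 in B, and -0.02 and -1.40). On the same arrays all 4 tested neutrophil probes were higher in B, with a summed list level of 31.8 in B and 26.2 in A. Of the 8 tested macrophage probes 3 were higher in B and 5 in A, with sums of 178.2 and 167.5. Other lists moved as well: 6 of 7 mast cell probes were higher in A (sums of 60.6 in A and 41.9 in B), as was the summed endothelial list (42.7 and 27.0), while 4 of 4 ciliated cell probes and 3 of 3 red cell probes were higher in B. The part of these cells was not tested. The neutrophil elastase gene Ela2 was detected on 1 array only, nostril B of female 4 (0.09).

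In male 5 the direction was opposite and the genes overlapped, with 6 of 7 higher in nostril A. Il1rn was 2.98 in A and 0.69 in B, Ccl3 1.80 and -0.10, Cxcl2 -0.12 and -2.10, Ccl20 0.78 and -0.37, Ccl17 -0.32 and -2.97 and Ccl22 -0.20 and -3.01. Cxcl2, Ccl17 and Ccl22 were not detected in nostril B. On these arrays all 4 tested neutrophil probes were higher in A (sums of 29.2 in A and 7.82 in B), as were 6 of the 8 macrophage probes (sums of 233.7 and 170.4), all 7 mast cell probes (88.4 and 68.6) and all 3 red cell probes, while all 4 ciliated cell probes were higher in B. The part of these cells was not tested.

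In male 6, 3 members were higher in nostril A and 4 in nostril B. Those higher in A were Cxcl2 (0.26 in A and -1.30 in B), Cxcl10 (-1.07, and not detected in B) and Il13ra2 (-0.60 and -1.71), a decoy for Il13, and all 3 were also among the members of female 4. Those higher in B were Il21r, Il16 and 1 of the 2 probes each of Il4 and Il22ra2. The other Il4 probe was not detected in either nostril of male 6, and the other Il22ra2 probe was on no array. Il21r, a receptor of B and T cells, was 3.01 in B and 1.64 in A, and 3.01 was its highest value on any array. Il16, a T-cell attractant, was 0.63 and -0.77, and Il22ra2, a decoy for Il22, 0.69 and -0.62. Ccr7, the receptor that brings lymphocytes and dendritic cells to lymph nodes, was detected on this array and no other (-1.44). The B-cell gene Ms4a1 was likewise detected there alone, and Cd79b was 3.04 beside 0.54 in nostril A. Of the 3 tested T-cell probes, Cd3d (3.28 in B and 1.83 in A) and Lck (1.00 and 0.62) were higher in B and Cd4 (-1.99 and -1.56) in A, and the summed list was 13.1 in B and 6.05 in A. The part of lymphocytes in these values was not tested.

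The nostril differences of Cxcl1 were set beside those of Cxcl2, Ccl2 and Il1b, a choice made after the values of female 4 had been seen, so they are a description with no test. Nostril A minus nostril B of Cxcl1 was -1.84 in female 4, 0.69 in male 5 and 0.54 in male 6. Ccl2 was -0.78, 0.71 and 0.55 in the same rats, and Il1b on its brighter probe -1.62, 0.58 and 0.77. In the other 4 rats the differences of these 3 genes lay between -0.16 and 0.36. Cxcl2 was not detected in nostril B of male 5 or in either nostril of females 7 and 8, so its differences there have no measured size. The points share arrays and dissection.

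**Figure D5:**
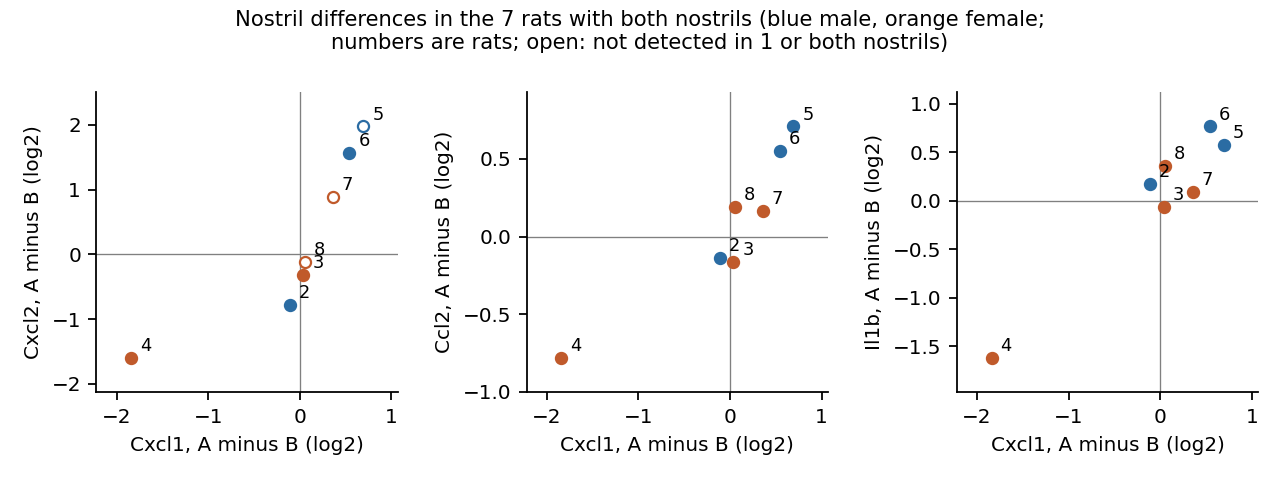
Nostril A minus nostril B difference (log2) of Cxcl2, Ccl2 and Il1b (vertical axes) against that of Cxcl1 (horizontal axes) in the 7 rats with both nostrils, numbered by rat. Open symbols mark rats in which the probe was not detected in 1 or both nostrils. Female 4 lies at the lower left and males 5 and 6 at the upper right in each plot.

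Genes of the wider pathway were described by count. Of 26 probes for cytokine signaling genes 25 were tested, and 3 (probes of 2 genes) were lower in rats 5 to 8 at 5% and none higher, where 2.63% of all probes were lower. These were Traf6, which carries signals from interleukin 1 and Toll-like receptors (-0.41, limma adjusted p = 0.0209), and both probes of Jak1, a kinase bound to many interleukin receptor chains, Il6st among them (-0.27 and -0.42, limma adjusted p = 0.0345 and 0.0149). Of 24 probes for NF-kB and acute inflammation 14 were tested and none passed at 5% between the slide sets. Tnf and Csf3 were on no array, and the prostaglandin enzyme Ptgs2 was on none with 1 probe and on 5 with the other (up to -0.56 in nostril A of male 2), while Nfkbia, the NF-kB inhibitor, lay between 6.15 and 6.52 on its brighter probe. Of 21 probes for other cytokines 12 were tested, and of 8 probes for the chemokine system outside the naming rule 4, and none of these passed at 5% between slide sets. Between the sexes no probe of these 4 lists passed at 5%.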

How the data were processed

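Total RNA had been labeled with Cy3 and hybridized alone to Agilent whole rat genome arrays. The deposited scanner files hold the processed intensity of each spot, which the authors extracted with Agilent Feature Extraction (version 9.5.1.1 per the file headers), with background removed and no scaling between arrays. Its detection and outlier flags, also deposited, were used as given. The authors' ratio table divides each intensity by its array median and then by its probe median (99.93% of ratios within 2%), and served as an alternative. The sources used here name build rn3 for the probe positions.

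Spots marked as outliers (61 to 175 per array) were left out, repeated spots averaged, signals divided by the array median, floored at 0.1 and taken to log2. Between 26233 and 28741 probes were detected per array. Sexes and slide sets were compared on rat means, nostrils with rat as a block, and rats of one sex by an F-test over single arrays, with limma 3.58.1 in R 4.3.3 (lmFit, eBayes), two-sided. Male 1 entered the F-test with its single array and the nostril test without weight. The F-test and nostril test used 27574 probes with a value on every array. The code was tested on simulated data. For arrays, their number limits the precision.

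Members, gene lists and tests were chosen with earlier results of these data known. Named are members past 1%, the 10 genes with the widest range of rat means, a list of well-known members, and any detected in one group alone. Named outside this rule, after their values were seen, are further members in the account of detection, of rats of one sex and of single nostrils. Of the fixed list, Cxcl16, Il33 and Il6r are not gene names on the array, where Il6ra stands for the last. An accession of the RefSeq table (GRCr8) was found for 95 of the 124 probes. Alternatives were other detection rules, scalings, floors, background correction (normexp, offset 50), filters, thresholds, blocks and left-out rats, and the methods' t-test. Results on some genes are not reported here.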

Additional observations from a re-analysis of the deposited data

How the results depend on the processing

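Members past 1% between rats of one sex numbered 1, which was Cxcl1, whose split was known beforehand. This became 13 at 5%, 2 with scaling to the 75th percentile (where 1305 of all probes passed, beside 768), 4 with normexp background correction (78 of all), 0 with the ratio table (356), 2 with no filter on dim probes (980), 0 with slide as a block (1), 2 without nostril B of female 4 and nostril A of male 5 (116, chosen after seeing the data), and 0 to 2 after leaving out a rat. Without Cxcl1 and Cxcl2 the counts at 5%, with the 75th percentile, with normexp and without those nostrils were 11, 1, 2 and 1. Where few probes of the array pass, a count of 0 does not describe the members. The 2 without a filter were probes of Ccl22 and Cxcl9 at the floor on nearly all arrays, where the spread is close to 0. Between the sexes, 0 became 2 (Ccl12 and Ccl28) when the 15 arrays were treated as independent. Between the slide sets, again without Cxcl1 and Cxcl2, 0 became 2 at 5% and stayed 0 with normexp and with slide as a random block. Between nostrils the count was 0 under every alternative run. Expressed members numbered 60, 84 when a positive and significant signal sufficed and 56 when all 15 arrays were required. Of the members with a signed difference, Cxcl1, Cxcl2, Il6st, Il1r1 and Ccl20 (slide sets), Ccl12, Ccl28 and Il2rb (sexes) and Cxcl14 (nostrils) were followed through the alternatives, and none of these changed direction. The nostril counts above 1 log2 unit, with the 75th percentile, were 17 in female 4, 7 in male 5 and 7 in male 6. No paired analysis was possible because rat numbers differ between the sexes and between the slide sets, while the nostrils of a rat were compared with rat as a block. Dim members are limited by background, and 58 were not tested.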
